A study of Mus musculus with 24 samples.

Results

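White fat (WAT, for white adipose tissue) was compared gene by gene with brown fat (BAT) in mice given a control oligonucleotide, with the 4 WAT libraries set against the 4 BAT libraries. These 8 libraries are all the scramblemiR libraries among 24 in the series; the other 16 came from mice given an inhibitor of miR-224 (antimiR-224) or of miR-452 (antimiR-452), again 4 per tissue. All animals were C57BL/6 mice, injected subcutaneously 2 times with an LNA oligonucleotide, a locked nucleic acid that binds its target tightly, at 25 mg/kg; in the scramblemiR group its sequence was scrambled, so the WAT and the BAT controls both carry an oligonucleotide and neither is untreated. Poly(A) RNA of the tissues was sequenced. Neither the white depot that was taken, nor the sex and age of the mice, nor whether each library is a separate mouse is stated in the labels, and p-values therefore measure the spread between these samples. Of 28535 genes with a read in either tissue, 18228 had a mean normalized count of at least 10 in WAT or in BAT and were compared.

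White fat cells store triglyceride in a single large droplet and release hormones such as leptin and adiponectin. Brown fat cells hold many small droplets and dense mitochondria, and burn fatty acids and glucose to make heat through the uncoupling protein UCP1, which lets protons return across the inner mitochondrial membrane without making ATP. The brown programme is driven by noradrenaline acting through beta-adrenergic receptors and cyclic AMP, by locally activated thyroid hormone, and by transcription factors and coactivators that include PRDM16, PGC-1alpha and the oestrogen-related receptors (ERR). Both kinds of tissue also hold blood vessels, fibroblasts and immune cells, and visceral white depots are covered by a sheet of mesothelium.

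The tables give group means, from which whole reads per library were recovered. The libraries held 22175430 to 27935908 reads in genes in WAT and 16960694 to 20255777 in BAT. Values are normalized counts, reads divided by the size factor of their library, with WAT put on the scale of BAT by a factor of 0.592, the median BAT to WAT ratio over 11301 genes with a mean of at least 50 in both. In the summed levels of marker lists, 3 libraries stood apart. BAT libraries 1 and 2 held 6.33% and 6.54% of their normalized counts in 18 skeletal muscle genes, against 0.00910% and 0.0112% in BAT libraries 3 and 4 and 0.00491% to 0.00703% in WAT. WAT library 2 held 0.245% of its counts in 20 male germ cell genes, against 0.00590% to 0.00681% in the other WAT libraries and 0.00325% to 0.00524% in BAT. Each result is given with these libraries included, and values without BAT libraries 1 and 2 are given beside many of those that depend on them.

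Promoters of genes on which the comparison turns are printed here, each 300 bases from 250 before to 50 after the annotated start of the gene (RefSeq, GRCm38.p6), 5′ to 3′ on the strand of the gene. Ucp1 and Lep are shown because they are the brown and white genes described first. Sdhd, Uqcrc1 and Atp5g3 encode subunits of oxidative phosphorylation that hold a short motif, drawn in capitals. The motifs searched, on both strands, were TNAAGGTCA, the extended half-site of oestrogen-related receptors, the palindrome bound by nuclear respiratory factor 1 (NRF1), whose letters are the capitals in Uqcrc1, and ACCGGAAG, the core bound by ETS factors such as GABP. None of them overlaps another here.
Ucp1, chr8:83290098-83290397, + strand, no motif: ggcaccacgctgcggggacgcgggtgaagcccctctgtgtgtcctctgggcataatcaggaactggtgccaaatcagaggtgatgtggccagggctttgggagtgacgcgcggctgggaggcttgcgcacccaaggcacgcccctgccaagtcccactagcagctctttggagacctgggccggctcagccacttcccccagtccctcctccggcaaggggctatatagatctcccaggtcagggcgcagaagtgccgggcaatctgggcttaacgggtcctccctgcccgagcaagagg
Lep, chr6:29059971-29060270, + strand, no motif: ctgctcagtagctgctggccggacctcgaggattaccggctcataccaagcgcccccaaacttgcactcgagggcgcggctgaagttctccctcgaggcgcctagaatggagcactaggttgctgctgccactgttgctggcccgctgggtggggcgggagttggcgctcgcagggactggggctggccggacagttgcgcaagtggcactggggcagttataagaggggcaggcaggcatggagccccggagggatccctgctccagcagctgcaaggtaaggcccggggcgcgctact
Sdhd, chr9:50603800-50604099, - strand, an ETS core and an ERR half-site, both read on the opposite strand: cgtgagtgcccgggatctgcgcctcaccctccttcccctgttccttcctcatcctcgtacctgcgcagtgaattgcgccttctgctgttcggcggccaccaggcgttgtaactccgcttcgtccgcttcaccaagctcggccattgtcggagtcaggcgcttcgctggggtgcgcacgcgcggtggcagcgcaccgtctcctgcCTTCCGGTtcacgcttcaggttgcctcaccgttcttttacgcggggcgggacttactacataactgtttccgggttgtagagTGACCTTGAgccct
Uqcrc1, chr9:108936398-108936697, + strand, the NRF1 palindrome: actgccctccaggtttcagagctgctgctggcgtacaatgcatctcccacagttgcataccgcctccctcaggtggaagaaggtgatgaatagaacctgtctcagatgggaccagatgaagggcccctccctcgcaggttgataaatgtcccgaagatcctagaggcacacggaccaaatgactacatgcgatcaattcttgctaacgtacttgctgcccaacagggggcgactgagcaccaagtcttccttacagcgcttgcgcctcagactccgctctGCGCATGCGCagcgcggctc
Atp5g3, chr2:73911277-73911576, - strand, an ERR half-site read on the opposite strand: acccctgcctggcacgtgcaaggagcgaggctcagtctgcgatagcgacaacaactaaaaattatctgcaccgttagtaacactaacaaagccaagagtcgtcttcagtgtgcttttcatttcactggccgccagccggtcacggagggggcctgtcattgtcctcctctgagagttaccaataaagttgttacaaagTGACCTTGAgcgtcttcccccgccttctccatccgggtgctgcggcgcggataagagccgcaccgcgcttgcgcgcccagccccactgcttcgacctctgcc

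The ERR half-site lay in 3 of 71 promoters of oxidative phosphorylation genes (4.22%), against 1.28% of all 32851 promoters of that length. The NRF1 palindrome lay in 5 of these 71 (7.04%), against 0.971% of all promoters, and the ETS core in 6 (8.45%), against 2.30%. Over the 15996 promoters of tested genes, the shares were 0.9065% for the ERR half-site, 1.757% for the NRF1 palindrome and 3.97% for the ETS core. Among genes higher in WAT, 0.909% of 4181 promoters held the ERR half-site, 1.005% the NRF1 palindrome and 2.82% the ETS core. Among genes higher in BAT, 0.842% of 2614 promoters held the ERR half-site, 2.22% the NRF1 palindrome and 5.28% the ETS core. These are counts of letters in a short window and say nothing about binding. Sdhd and Uqcrc1 were both higher in BAT, whereas Atp5g3, which holds the same half-site as Sdhd, had a log2 difference of 0.01 ± 0.31 (WAT minus BAT, adjusted p = 0.979).

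Of the 18228 genes compared, 4606 (25.3%) were higher in WAT and 2866 (15.7%) were higher in BAT at an adjusted p under 0.05 (limma on log2 of the normalized count + 1, Benjamini-Hochberg), so that 41.0% of genes differed in either direction. With a log2 difference of at least 1 as well, 3236 genes (17.8%) were higher in WAT and 1696 (9.30%) were higher in BAT. The 4 WAT values lay above all 4 BAT values for 4616 genes (25.3%) and below them for 2857 (15.7%). The median log2 difference over all tested genes was 0.26, and lists are read against it. Counts of list members are read against the shares of all tested genes, 25.3% higher in WAT and 15.7% higher in BAT. The share of calls that favoured WAT depended on the scaling: it was 61.6% here, 54.4% with size factors computed over the 8 libraries together, 51.4% after quantile normalization and 82.0% with scaling by total reads, which moved the median of all genes to 0.67. The lists below and their members were chosen with earlier results of these data known, and every fold is a log2 difference of WAT minus BAT, so that negative values mean higher in BAT. In bulk tissue, fewer cells of a type and less RNA per cell cannot be told apart.

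Genes of brown fat identity were higher in BAT almost throughout. Of 32 such genes, all tested, 29 were higher in BAT and 1 in WAT, with a median log2 difference of -5.77. Ucp1 had 106, 3.34, 0.617 and 7.47 normalized counts in WAT libraries 1 to 4, against 43938, 68550.1, 130764 and 103464 in BAT libraries 1 to 4. The groups were far apart, and WAT library 1 held most of the Ucp1 reads of white fat; the log2 difference was -13.13 ± 1.22 (adjusted p = 0.000204). Cidea, a lipid droplet protein abundant in brown fat, had 245, 25.6, 25.9 and 173 in WAT and 25105, 40419, 48717 and 49762 in BAT. Again WAT libraries 1 and 4 were the higher pair in white fat, and no WAT library came near a BAT one (log2 -9.06 ± 0.79, adjusted p = 0.000117). WAT libraries 1 and 4 were also the higher pair for Cox8b, with 169, 13.3, 43.8 and 373 in WAT and 5955, 8848, 10069.9 and 8135 in BAT, and for Cox7a1, with 36.6, 4.45, 11.7 and 58.4 in WAT and 3395, 5708, 5757 and 4955 in BAT. Both encode tissue forms of subunits of cytochrome c oxidase, the last enzyme of the respiratory chain. Otop1, a proton channel, had 36.1, 3.34, 0.617 and 22.4 in WAT and 4032, 4972, 6933 and 8538 in BAT.

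Among the other brown genes, Dio2, the deiodinase that turns thyroxine into active thyroid hormone, had 62.8, 25.6, 33.9 and 16.99 in WAT and 4601, 5143, 8334 and 11652 in BAT (log2 -7.75 ± 0.41, adjusted p = 6.83e-06). Elovl3, an elongase of long fatty acids, had 8.90, 5.003, 3.70 and 9.51 in WAT and 1023, 1869, 1549.9 and 4316 in BAT. Ppargc1a, which encodes the coactivator PGC-1alpha, had 113, 124, 169 and 173 in WAT and 1114, 1732, 1639.9 and 1282 in BAT, a smaller difference of -3.31 ± 0.20 on the log2 scale (adjusted p = 7.20e-06). Prdm16, which encodes a coregulator of the brown programme, had 62.3, 85.6, 58.6 and 93.1 in WAT and 763, 454, 735 and 540.5 in BAT (log2 -3.03 ± 0.23, adjusted p = 1.98e-05). These ranges leave wide gaps, with every BAT value several times the highest WAT value. Zic1, a marker of classical brown fat, had no read in any WAT library and 249.6, 184, 156 and 390.4 normalized counts in BAT, at least 137-fold higher in BAT when 3 reads per WAT library are taken as the floor. Lhx8, another transcription factor used to mark brown fat, had 0, 1.11, 0 and 0 in WAT and 75.8, 50.3, 59.3 and 104 in BAT. Fatty acid handling genes of the list stood in the same direction: Fabp3, a fatty acid binding protein of oxidative tissues whose reads may be shared with a pseudogene, had 2.62, 5.56, 1.23 and 4.08 in WAT and 1688, 1857, 2325 and 1424 in BAT, and the thioesterase gene Acot11 had 50.3, 24.5, 29.0 and 39.4 in WAT and 4894, 7432, 9438 and 11166 in BAT. S100b, which is also a Schwann cell marker, had 18.8, 14.5, 5.55 and 6.12 in WAT and 456, 788, 922 and 843 in BAT.

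The other 3 members of the brown list were not higher in BAT. Adrb3, the beta3-adrenergic receptor of fat cells, was higher in WAT, with 21297, 18348, 20744 and 20644 in WAT and 4369, 3585, 5275 and 3697 in BAT (log2 2.27 ± 0.17, adjusted p = 2.09e-05). Every WAT value lay well above every BAT value. Ebf2, which encodes a factor of brown fat commitment, had 930.3, 748, 1035 and 638 in WAT and 1078, 768, 1184 and 1575 in BAT, with overlapping values (log2 -0.44 ± 0.23, adjusted p = 0.16; without BAT libraries 1 and 2 it was called, at -0.75, adjusted p = 0.0428). Irf4, a partner of PGC-1alpha that also marks B cells, had 350.2, 956, 3640.0 and 413 in WAT and 2541, 656, 4539.5 and 3121 in BAT. Its highest WAT library exceeded 3 of the 4 BAT libraries (log2 -1.39 ± 0.88, adjusted p = 0.246).

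Genes of white fat identity were higher in WAT almost throughout. Of 24 genes of white identity, 23 were higher in WAT and 1 in BAT, with a median log2 difference of 4.27, or 4.26 with the 2 members that had no BAT read set at their bound. Lep, which encodes the satiety hormone leptin, had 6999, 2340.3, 2721 and 4542 in WAT and 82.3, 77.4, 40.2 and 50.02 in BAT. WAT library 1 was the highest, and even the lowest WAT value was far above the highest BAT value (log2 5.95 ± 0.36, adjusted p = 9.97e-06). Retn, the gene of resistin, had 24567, 16933, 25209 and 36456 in WAT and 1749.8, 746, 405 and 854 in BAT (log2 4.92 ± 0.41, adjusted p = 3.95e-05). Nnat, an imprinted membrane protein gene, had 9464, 11797, 17258 and 10956 in WAT and 337, 104, 90.0 and 43.5 in BAT (log2 6.78 ± 0.54, adjusted p = 5.54e-05). Agt, which encodes angiotensinogen, had 6930.1, 6363, 7650.0 and 5294 in WAT and 223.7, 133, 22.2 and 71.8 in BAT (log2 6.27 ± 0.62, adjusted p = 0.000185). In each of Retn, Nnat and Agt BAT library 1 was the highest of the BAT libraries, and all of its values stayed below every WAT value. Igfbp2, a binding protein of insulin-like growth factors, had 296, 213, 235 and 69.3 in WAT and 3.70, 4.84, 1.06 and 0 in BAT. The exception in the list was Gpd1, glycerol-3-phosphate dehydrogenase, with 15778, 2574, 5561 and 21579 in WAT and 69134, 101771, 125016 and 154442 in BAT (log2 -3.69 ± 0.62, adjusted p = 0.00162). The WAT values of Gpd1 spread over several-fold, with library 2 lowest, and none reached a BAT value.

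Genes that every fat cell uses differed less. Of 18 such genes, 7 were higher in WAT, 2 in BAT and 9 were not called, with a median of 0.57; without BAT libraries 1 and 2, 4 were higher in WAT and 2 in BAT, and with scaling by total reads or quantile normalization 11 and 2. Pparg, the master regulator of fat cell formation, had 4593, 2967, 4593 and 3297 in WAT and 3691, 3967, 4863 and 5589.6 in BAT, and the groups overlapped (log2 -0.24 ± 0.21, 95% interval -0.70 to 0.23, adjusted p = 0.383). Fabp4, the abundant fatty acid binding protein of adipocytes, had 218414, 151426, 208557 and 267844 in WAT and 84031, 110662, 122693 and 117113 in BAT (log2 0.95 ± 0.26, adjusted p = 0.0155). Adipoq, the gene of adiponectin, had 43613, 34734, 57897 and 46732 in WAT and 12698, 10653, 12615 and 17637 in BAT (log2 1.77 ± 0.23, adjusted p = 0.000316). For both genes the lowest WAT library was above the highest BAT library, narrowly for Fabp4 and widely for Adipoq. Without BAT libraries 1 and 2 Fabp4 was not called (log2 0.77, adjusted p = 0.14). Cfd, which encodes the secreted protease adipsin, had 182661, 185250.0, 284305 and 190280.0 in WAT and 29986, 14183, 12209.5 and 28628 in BAT, the widest difference of the list toward WAT (log2 3.40 ± 0.34, adjusted p = 7.87e-05). Slc2a4, the insulin-responsive glucose transporter, went the other way, with 3943, 1804, 2507 and 4088 in WAT and 8333, 10775, 8496 and 11064 in BAT (log2 -1.71 ± 0.27, adjusted p = 0.000885).

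**Figure D1:**
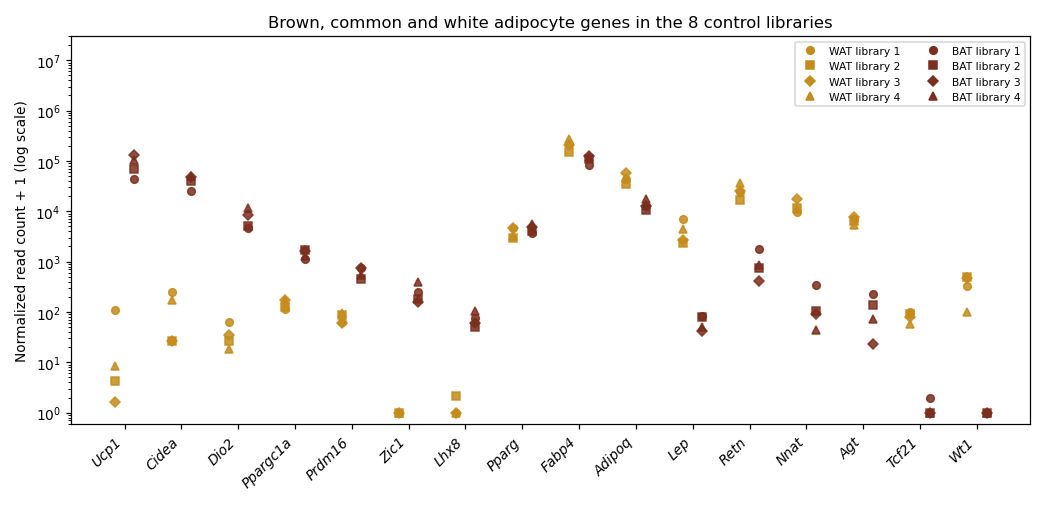
Normalized read count + 1 on a log scale for 16 genes of brown, common and white fat identity; each point is 1 library, with WAT left of BAT for every gene and the marker shape giving the library. Ucp1 reached at most 106 in WAT and at least 43938 in BAT, Pparg overlapped between the tissues, and Wt1 had no read in any BAT library.

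Genes of the respiratory chain were higher in BAT almost without exception. Of 81 tested nuclear genes for complexes I to V, 75 were higher in BAT, 1 was higher in WAT and 5 were not called, with a median log2 difference of -1.93. Complex I had 36 of 36 members higher in BAT (median -1.89), complex II 4 of 4 (median -2.50) and complex III 10 of 10 (median -2.28). In complex IV 13 of 15 were higher in BAT (median -1.95), and in complex V 12 of 16 (median -1.64). The medians kept their sign under each scaling. With scaling by total reads they ran from -1.22 for complex V to -2.08 for complex II. Sdhd, a membrane anchor of succinate dehydrogenase whose promoter is printed above, had 2537, 1356, 2293 and 2969 in WAT and 9314, 12408, 15815 and 15843 in BAT (log2 -2.57 ± 0.27, adjusted p = 0.000103). Uqcrc1, a core protein of complex III whose promoter holds the NRF1 palindrome, had 4648, 3026, 3697 and 5871 in WAT and 22949, 31870.5, 36415 and 35166 in BAT (log2 -2.90 ± 0.25, adjusted p = 3.60e-05). Every BAT library exceeded every WAT library for both genes, and WAT library 2 was the lowest of all. Without BAT libraries 1 and 2, the log2 difference was -2.87 for Sdhd and -3.12 for Uqcrc1, and 35 members of complex I, 10 of complex III and 11 of complex V were higher in BAT. Ndufv1, which encodes the NADH-binding subunit of complex I, had a log2 difference of -2.62 ± 0.25, and Cox5a of complex IV one of -3.04 ± 0.29.

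The 6 members not higher in BAT were Atpif1, Atp5g1, Atp5g2, Atp5g3, Cox6a2 and Cox4i2. Atpif1, whose protein inhibits the ATP synthase when it runs in reverse, was the one member higher in WAT, with 342, 427, 328 and 616 in WAT and 157, 140.2, 132 and 89.2 in BAT (log2 1.70 ± 0.25, adjusted p = 0.000567). Atp5g1, Atp5g2 and Atp5g3 encode the same mature subunit c, which forms the rotor ring of the ATP synthase, and none of them was called. Atp5g3 had 5683, 3335, 5026 and 9646 in WAT and 6052, 7179.6, 4973 and 4123 in BAT, on overlapping ranges. Atp5g1 had 118, 101, 131 and 193 in WAT and 413, 474, 43.4 and 22.8 in BAT, so that BAT libraries 1 and 2 were above WAT and BAT libraries 3 and 4 below it; without libraries 1 and 2 the log2 difference was 2.005 (adjusted p = 0.00563). Cox6a2, the muscle form of a complex IV subunit, had 0.524, 1.67, 0 and 4.76 in WAT and 2487, 2383, 0 and 5.44 in BAT, again split by the BAT libraries high in muscle genes. Cox4i2 had 22.8 to 44.2 in WAT and 29.6 to 52.9 in BAT and was not called either.

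Transcripts of mitochondrial DNA made up 3.92%, 2.55%, 3.34% and 5.09% of the normalized counts of WAT libraries 1 to 4, against 10.9%, 11.8%, 13.9% and 13.5% in BAT libraries 1 to 4. All 10 tested mitochondrial genes were higher in BAT, with a median of -2.24. Among them, mt-Nd1, a complex I subunit, had 71303, 43568, 51147 and 106762 in WAT and 264786, 368978, 389664 and 386211 in BAT, and mt-Nd6, the one subunit encoded on the light strand, had 617, 210.1, 553 and 851 in WAT and 3576, 4837, 5429 and 5248 in BAT. The libraries do not overlap for either gene. mt-Atp6, mt-Co2 and mt-Co3 were counted at 1.11 to 32.9 per library, far below mt-Nd1, and have near-identical copies in the nuclear genome, so their counts are uncertain. Without BAT libraries 1 and 2, 9 of the mitochondrial genes were higher in BAT, and mt-Co3 was not called (adjusted p = 0.053). Proteins of the mitochondrial ribosome, which translates the mitochondrial transcripts, were also higher in BAT, at 56 of 72 tested genes with a smaller median of -0.95. Proteins of the cytosolic ribosome had 17 of 38 members higher in WAT and 0 in BAT, with a median of 0.39, against 0.26 over all tested genes. The count in WAT was 10 with size factors over the 8 libraries, 10 without BAT libraries 1 and 2 and 27 with scaling by total reads. Mean levels in WAT ran from 4.15 for Rpl24 and 4.63 for Rpl38, neither of them tested, to 6223 for Rpl4. Values of the low members are therefore uncertain, and whether reads were lost to near-identical copies was not tested. In the group means of the inhibitor libraries, the median of this list was 0.15 with antimiR-224 and -0.03 with antimiR-452.

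Oxidation of fuel upstream of the chain followed the same direction. In the citric acid cycle and pyruvate dehydrogenase, 19 of 20 genes were higher in BAT and 0 in WAT, with a median of -2.55. Suclg1, a subunit of succinyl-CoA ligase, differed by -3.58 ± 0.25 and Sucla2, its partner in the ATP-forming enzyme, by -3.43 ± 0.21. The member not called was Pcx, pyruvate carboxylase, which refills the cycle and also serves fat synthesis, with 32107, 15646, 30050.0 and 37281 in WAT and 19779, 14518, 15662 and 23689 in BAT (log2 0.60 ± 0.30, adjusted p = 0.131). It was called higher in WAT after quantile normalization (log2 1.26) and with scaling by total reads (log2 1.02).

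In mitochondrial and peroxisomal fatty acid oxidation, 23 of 26 genes were higher in BAT and 1 in WAT, with a median of -2.18. The entry step split by isoform. Cpt1b, the muscle form of carnitine palmitoyltransferase 1, had 3.14, 3.34, 2.47 and 3.40 in WAT and 390.1, 374, 563 and 371 in BAT (log2 -6.69 ± 0.25, adjusted p = 6.02e-07). BAT library 3 was the highest. Cpt1a, the liver form, had 1101, 1169, 1145 and 1010.4 in WAT and 335, 350.1, 495 and 304 in BAT (log2 1.60 ± 0.16, adjusted p = 8.62e-05). Per kilobase of exon, mean Cpt1a was 145 normalized counts in WAT and 48.6 in BAT, and mean Cpt1b was 0.915 in WAT and 126 in BAT, so that the order of the forms differed between the tissues. Acaa2, the thiolase that ends each turn of the cycle, had 2845, 1545, 1697 and 3203 in WAT and 24636, 34480.1, 44781 and 42222 in BAT (log2 -4.01 ± 0.29, adjusted p = 1.72e-05). Slc27a2, an acyl-CoA synthetase of very long chains, had 24.1, 69.5, 115 and 50.3 in WAT and 6889, 5529, 6943 and 13164 in BAT (log2 -7.08 ± 0.45, adjusted p = 1.69e-05).

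**Figure D2:**
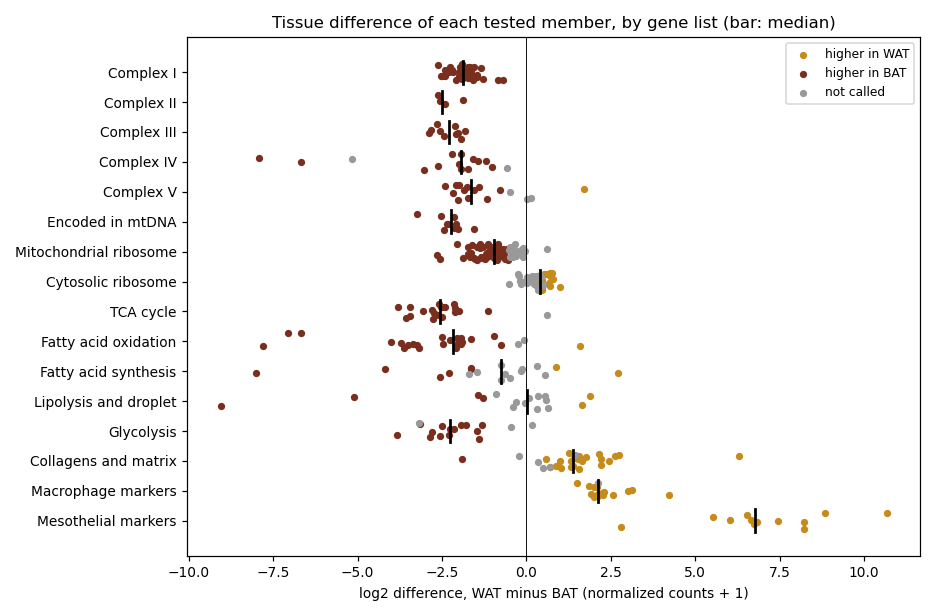
Log2 difference (WAT minus BAT, horizontal axis) of every tested member of the gene lists named on the vertical axis; each point is 1 gene, coloured by its call, and the black bar is the median of the list. Points of complexes I to III lie left of 0 without exception, whereas the lists of fatty acid synthesis and of lipolysis and droplets hold members on both sides.

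Several other pairs of related genes were divided between the tissues in the same way. Levels are compared here per kilobase of exon, as means of normalized counts. Adrb3 had 6001 per kilobase in WAT and 1254 in BAT, and Adrb1, the beta1-adrenergic receptor, had 15.96 in WAT and 105 in BAT. Adrb3 therefore remained the more abundant receptor transcript of the pair in both tissues. Adcy5, an adenylyl cyclase, had 398 per kilobase in WAT and 34.6 in BAT, whereas Adcy3, another form of the enzyme, had 68.7 in WAT and 1722 in BAT. Here the order was turned round, and BAT library 1 held more Adcy5 than the other BAT libraries, at 529.6 normalized counts. Among lipid droplet proteins, Plin4 had 7492 per kilobase in WAT and 2435 in BAT, against 64.0 in WAT and 2179 in BAT for Plin5, which ties droplets to mitochondria. Cidec had 34299.9 in WAT and 9201 in BAT, and its relative Cidea 105 in WAT and 36772 in BAT. Ucp2, a relative of Ucp1 that is abundant in immune cells, had 2688, 4031, 3937 and 3442 normalized counts in WAT and 964, 949.8, 1253 and 1165 in BAT (log2 1.69 ± 0.17, adjusted p = 8.34e-05). Ucp3, the muscle relative, had 382, 225, 392 and 552 in WAT and 5430.4, 5226, 3329 and 5814 in BAT (log2 -3.71 ± 0.28, adjusted p = 1.98e-05). Every BAT library lay above every WAT library.

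**Figure D3:**
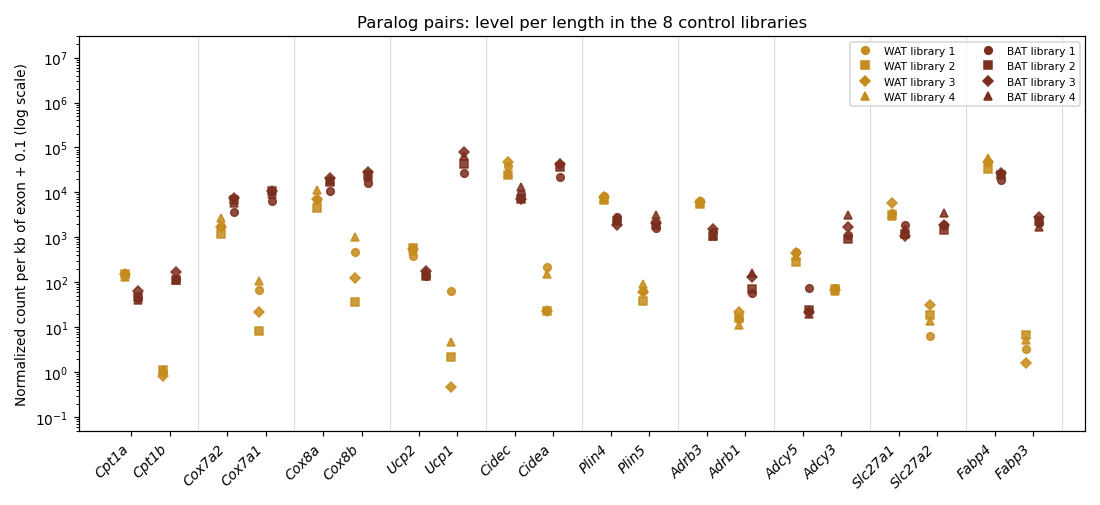
Normalized count per kilobase of exon + 0.1, on a log scale, for 10 pairs of related genes; each point is 1 library, WAT left of BAT. The second gene of each pair was higher in BAT, and the first was higher in WAT except Cox7a2 and Cox8a. Pairs whose order differs between the tissues include Cpt1a and Cpt1b, Adcy5 and Adcy3, Cidec and Cidea, and Ucp2 and Ucp1.

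Several genes of fatty acid synthesis varied widely among the white libraries. Of 18 such genes, 2 were higher in WAT, 6 in BAT and 10 were not called, with a median of -0.75. After quantile normalization the counts were 2 in WAT and 4 in BAT. Fasn, the fatty acid synthase, had 120091, 14019.9, 64227 and 178741 in WAT and 270450.0, 328022, 328919 and 376664 in BAT (log2 -2.29 ± 0.68, adjusted p = 0.024). WAT library 2 was lowest and WAT library 4 highest. Without BAT libraries 1 and 2 Fasn was not called (adjusted p = 0.0786), nor without WAT library 3 or any of BAT libraries 2, 3 and 4 alone (adjusted p from 0.0505 to 0.0569), nor after quantile normalization (log2 -1.66, adjusted p = 0.0517). The same order held for Elovl6, an elongase, with 1659, 139.5, 683 and 5189 in WAT and 13679, 18238, 17184 and 20727 in BAT (log2 -4.18 ± 0.99, adjusted p = 0.0123). Acly, which supplies cytosolic acetyl-CoA, had 11507, 2168, 7366 and 26574 in WAT and 19788, 34112, 38191 and 21075 in BAT and was not called (log2 -1.70 ± 0.67, 95% interval -3.23 to -0.17, adjusted p = 0.0724; without WAT library 4, log2 -2.25, adjusted p = 0.0134). Acacb, the acetyl-CoA carboxylase at the mitochondrial surface, had a steadier 7946, 4923, 9800.2 and 6691 in WAT and 42797, 34887, 36631 and 57525 in BAT (log2 -2.56 ± 0.26, adjusted p = 7.81e-05). Fads1, a desaturase of polyunsaturated fatty acids, was higher in WAT, with 1913, 1469, 2320.4 and 2511 in WAT and 308, 312, 359 and 251.2 in BAT (log2 2.72 ± 0.19, adjusted p = 1.42e-05).

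Of 15 genes of triglyceride assembly, 3 were higher in WAT and 6 in BAT (after quantile normalization, 4 in WAT and 3 in BAT). Over all tested genes, 25.3% were higher in WAT and 15.7% in BAT. Gk, glycerol kinase, which lets a cell reuse glycerol, had 161, 75.6, 78.9 and 304 in WAT and 4279.6, 3354, 5695 and 10358 in BAT (log2 -5.36 ± 0.50, adjusted p = 0.000104). Gpat3, an acyltransferase of the first step, had 3126, 2156, 4994 and 3621 in WAT and 647, 265, 275 and 564 in BAT (log2 3.04 ± 0.35, adjusted p = 0.000205). These genes lay on opposite sides with no overlap in either. Among 16 genes of lipolysis and the lipid droplet, 2 were higher in WAT and 4 in BAT. The balance turned with the scaling, at 9 in WAT and 4 in BAT with scaling by total reads and 6 in WAT and 4 in BAT after quantile normalization. The lipases themselves were not called: Pnpla2 had 38589 to 66059 in WAT and 52392 to 90752 in BAT, and Lipe 29152 to 46338 in WAT and 22351 to 35309 in BAT (adjusted p = 0.352 and 0.0676). Lipe was called higher in WAT after quantile normalization (log2 1.24) and with scaling by total reads (log2 1.01), and without WAT library 2 or BAT library 4 (adjusted p = 0.0198 and 0.0409). Among 19 genes of fatty acid uptake, 6 were higher in WAT and 7 in BAT. The counts were 2 in WAT and 7 in BAT without BAT libraries 1 and 2, and 9 in WAT and 6 in BAT with scaling by total reads. Lpl, the lipase that frees fatty acids from circulating triglyceride, had 270337, 155454, 258113 and 308156 in WAT and 120359, 102080.0, 76472 and 170252 in BAT (log2 1.096 ± 0.33, adjusted p = 0.0224; without BAT libraries 1 and 2, adjusted p = 0.122). Its call was also lost without WAT library 1, 3 or 4 or BAT library 2 or 3 (adjusted p from 0.0554 to 0.062). Apoe, a lipoprotein gene also made by macrophages, had a log2 difference of 2.24 ± 0.22.

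Glycolysis genes were higher in BAT, but part of their size rested on the libraries high in skeletal muscle genes. Of 17, 14 were higher in BAT and 0 in WAT, with a median of -2.27; without BAT libraries 1 and 2, 13 were, with a median of -1.99. Pfkm, the muscle form of phosphofructokinase, had 543, 464, 380.5 and 573 in WAT and 22594, 23615, 1906 and 2283 in BAT. BAT libraries 1 and 2 were about an order of magnitude above BAT libraries 3 and 4, which in turn exceeded every WAT library (log2 -3.84 ± 0.91, adjusted p = 0.0123; without the first pair -2.13, adjusted p = 0.000418). Pfkl, the liver form, had 1983, 1129.5, 1837 and 3060.3 in WAT and 8186, 13451, 17087 and 15695 in BAT, with no such split (log2 -2.80 ± 0.32, adjusted p = 0.000168). Ldhb, a lactate dehydrogenase subunit, had 678, 561, 647 and 877 in WAT and 4910.0, 6098, 6480.0 and 7153 in BAT (log2 -3.16 ± 0.18, adjusted p = 5.70e-06). Eno3, the muscle enolase, was not called, with 199, 296, 178 and 265 in WAT and 22219, 23952, 232 and 157 in BAT. Gapdh, Pgk1 and Pgam1 have many near-identical pseudogenes and were counted far below the other enzymes, so their values are uncertain.

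The muscle genes themselves show the extent of this. Summed over 18 skeletal muscle genes, the level was 1028, 704, 714 and 796 in WAT libraries 1 to 4 and 1168940.0, 1280330.0, 1634 and 2174 in BAT libraries 1 to 4. All 18 were tested, 6 were higher in BAT, and the median was -7.54; without BAT libraries 1 and 2, 9 were higher in BAT with a median of -2.38. Mb, which encodes myoglobin, had 6.28, 1.67, 3.70 and 4.08 in WAT and 18063, 17822, 458 and 659 in BAT, so that BAT libraries 3 and 4 also lay far above WAT (without libraries 1 and 2, log2 -6.91, adjusted p = 0.00014). Ckm, muscle creatine kinase, had 3.14, 2.22, 0 and 8.15 in WAT and 79226, 93251, 57.2 and 93.5 in BAT. Its call, like that of Myh4, Atp2a1 and Xirp2 below, was lost with voom weights and without single WAT libraries. Xirp2 was also not called without BAT libraries 1 and 2 (log2 -3.59, adjusted p = 0.0634). With voom weights 0 of the 18 muscle genes were called, and 2 were called without WAT library 2. Of 13 genes of creatine and calcium cycling, 2 were higher in WAT and 6 in BAT, with a median of -2.08; without BAT libraries 1 and 2 the counts were 3 and 4 and the median -0.75. Atp2a2, the calcium pump of slow muscle and many other cells, had 2969, 3003, 3096 and 2282 in WAT and 24659, 5636, 5429.9 and 7761 in BAT, and Alpl, a phosphatase, had 85.9, 123, 54.3 and 87.7 in WAT and 245, 306, 439 and 502 in BAT. Ckmt1, a mitochondrial creatine kinase, had 16.8, 17.8, 4.93 and 20.4 in WAT and no read in BAT, at least 4.94-fold higher in WAT.

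In the pathway from noradrenaline to cyclic AMP, 5 of 23 genes were higher in WAT and 10 in BAT. Over all tested genes the shares were 25.3% and 15.7%. Besides the receptors and cyclases above, Adra1a, an alpha1 receptor, had 95.3, 49.5, 28.4 and 104 in WAT and 1478, 1066, 1473 and 2279 in BAT (log2 -4.61 ± 0.41, adjusted p = 5.38e-05). Pde4d, a phosphodiesterase that breaks down cyclic AMP, had 61.8, 105, 149 and 84.9 in WAT and 3805, 2760.4, 2484 and 4816 in BAT (log2 -5.12 ± 0.29, adjusted p = 5.97e-06). Adra2a, a receptor that restrains lipolysis, had 23.0, 16.7, 27.1 and 15.6 in WAT and 6.47, 0.967, 6.35 and 3.26 in BAT (log2 2.19 ± 0.53, adjusted p = 0.00847), a call not made after quantile normalization (adjusted p = 0.285). Gnas, the stimulatory G protein, was higher in BAT, with a log2 difference of -2.28 ± 0.24. In thyroid hormone handling, Dio3, the deiodinase that inactivates the hormone, stood opposite to Dio2, with 16.2, 16.7, 8.63 and 19.7 in WAT and 0.924, 0.967, 1.06 and 0 in BAT (log2 3.23 ± 0.57, adjusted p = 0.00162). The receptor gene Thra did not differ detectably (log2 0.10 ± 0.12, 95% interval -0.17 to 0.37, adjusted p = 0.531; with scaling by total reads 0.52, adjusted p = 0.00489). Of 20 genes of insulin action, 3 were higher in WAT and 6 in BAT, a balance that turned to 10 in WAT and 1 in BAT with scaling by total reads and to 7 in WAT and 3 in BAT after quantile normalization. Ptprf, a receptor phosphatase, had 955, 772, 760.3 and 691 in WAT and 113, 81.2, 45.5 and 21.7 in BAT (log2 3.82 ± 0.43, adjusted p = 0.00019).

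Among 29 transcription factors and coregulators of fat cells, 3 were higher in WAT, 11 in BAT and 15 were not called. With scaling by total reads 9 were higher in WAT and 10 in BAT. The oestrogen-related receptors, orphan receptors that work with PGC-1 coactivators on mitochondrial genes, all lay on the side of BAT. Esrra had 718, 565, 608 and 987 in WAT and 3226, 3959, 4463 and 4834 in BAT (log2 -2.53 ± 0.20, adjusted p = 2.70e-05). Esrrg had 10.99, 7.78, 3.70 and 29.9 in WAT and 1078, 533, 250.9 and 717 in BAT (log2 -5.67 ± 0.60, adjusted p = 0.000129). Esrrb had 1.57, 2.22, 2.47 and 0.679 in WAT and 146, 65.8, 13.8 and 88.1 in BAT (log2 -4.51 ± 0.67, adjusted p = 0.000664). In the last 2 of these BAT library 1 was the highest and BAT library 3 the lowest, yet no BAT value fell to the WAT range. Per kilobase the order was Esrra, Esrrg, Esrrb in both tissues, with 164, 2.11 and 0.287 in WAT and 939, 104 and 13.0 in BAT. Ppargc1b, the second PGC-1 coactivator, had 135, 157, 136 and 173 in WAT and 1344, 993, 2044 and 1942 in BAT (log2 -3.33 ± 0.23, adjusted p = 1.34e-05). Nrf1, whose palindrome was searched above, had 259, 337, 332 and 319 in WAT and 308, 255, 270.0 and 302 in BAT and was not called (log2 0.13 ± 0.14, 95% interval -0.19 to 0.45, adjusted p = 0.48; with scaling by total reads 0.55, adjusted p = 0.0206). Cebpb, a factor induced by cyclic AMP, had 217, 445, 496 and 403 in WAT and 2826, 3046, 5525 and 3899.7 in BAT (log2 -3.30 ± 0.29, adjusted p = 4.40e-05). Ebf1 and Zfp423, factors of early fat cell formation, were higher in WAT by 1.12 ± 0.18 and 1.05 ± 0.23, and Zfp423 was not called without BAT libraries 1 and 2 (adjusted p = 0.0603).

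Hox genes, which record the position of a tissue along the body axis, differed mainly at high paralog numbers. In the HoxC cluster, Hoxc4 and Hoxc5 were not called, while Hoxc6, Hoxc8, Hoxc9 and Hoxc10 were higher in WAT. Hoxc8 had 2139, 1567, 2509.7 and 2102 in WAT and 126, 34.8, 41.3 and 45.7 in BAT (log2 5.23 ± 0.37, adjusted p = 1.78e-05). Hoxc9 had 102, 121, 101 and 53.7 in WAT and 2.77, 0, 0 and 0 in BAT (log2 6.04 ± 0.54, adjusted p = 4.72e-05). Hoxc10 had 39.3, 32.8, 4.93 and 14.9 in WAT and no read in BAT, at least 7.59-fold higher in WAT, and WAT library 3 was lowest. With voom weights Hoxc10, Hoxa9 and Hoxa10 were not called (adjusted p = 0.0513, 0.0869 and 0.171). In the HoxB cluster, Hoxb2, Hoxb3 and Hoxb4 were not called and Hoxb5 to Hoxb9 were all higher in WAT, from 1.21 ± 0.30 for Hoxb6 to 3.31 ± 0.57 for Hoxb9. After quantile normalization 1 gene of this cluster, Hoxb9, was called (adjusted p = 0.011). In the HoxA cluster the sign changed along the row: Hoxa4 had 28.8, 84.5, 30.2 and 70.0 in WAT and 139.6, 247, 326 and 341 in BAT (log2 -2.36 ± 0.42, adjusted p = 0.00173), Hoxa5 was also higher in BAT (log2 -0.90 ± 0.23), and Hoxa7 had 588, 513, 719 and 798 in WAT and 206, 176, 238 and 223 in BAT (log2 1.62 ± 0.17, adjusted p = 0.00011). Hoxa9 and Hoxa10 were also higher in WAT, but not without BAT libraries 1 and 2 (adjusted p = 0.122 and 0.117) or without WAT library 1 (adjusted p = 0.0674 and 0.0695) or BAT library 2 alone (adjusted p = 0.066 and 0.0506). After quantile normalization Hoxa9, Hoxa10, Hoxb5, Hoxb6 and Hoxd4 were not called (adjusted p from 0.167 to 0.298), and with scaling by total reads Hoxa5 was not (adjusted p = 0.105), while Hoxb3 was (log2 1.04). In the HoxD cluster, Hoxd9 had 104, 106, 93.7 and 77.5 in WAT and 165, 116, 11.6 and 28.3 in BAT, so that BAT libraries 1 and 2, high in muscle genes, exceeded or matched WAT and the others did not (without them, log2 2.29, adjusted p = 0.00397). Hoxd4 was higher in WAT, at 33.0, 30.0, 32.1 and 26.5 in WAT and 8.32, 5.80, 14.8 and 9.79 in BAT.

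**Figure D4:**
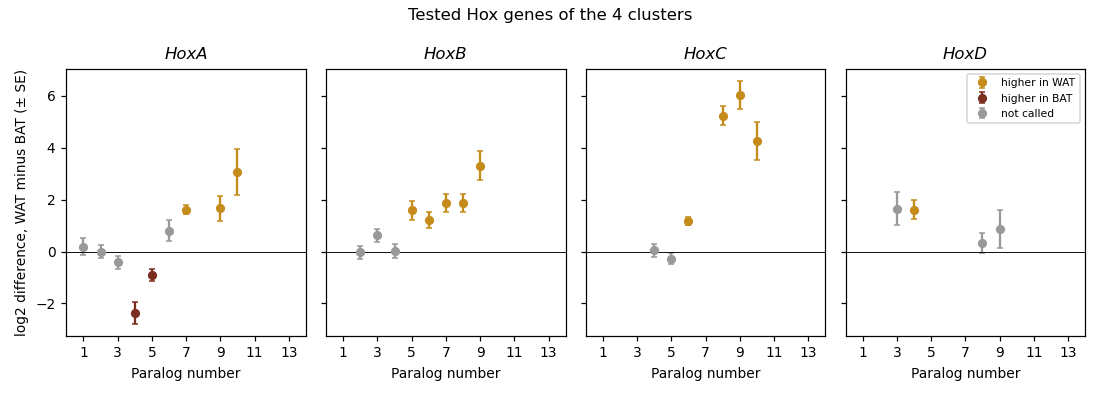
Log2 difference (WAT minus BAT, ± SE) of each tested Hox gene against its paralog number, 1 panel per cluster. Called genes of the B and C clusters lie above 0 and begin at paralog 5 and 6, while HoxA shows Hoxa4 and Hoxa5 below 0 and Hoxa7, Hoxa9 and Hoxa10 above it.

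Other developmental factors separated the tissues too. Of 39 such genes, 32 were tested, with 14 higher in WAT and 7 in BAT and a median of 0.67. Over all tested genes the shares were 25.3% and 15.7%. Without BAT libraries 1 and 2 the counts were 14 and 5 and the median 1.36. Wt1, a factor of mesothelium and visceral fat progenitors, had 326, 492, 467 and 101 in WAT and no read in BAT, at least 114-fold higher in WAT. Tcf21, a marker of white progenitors, had 101, 88.9, 78.9 and 57.1 in WAT and 0.924, 0, 0 and 0 in BAT (log2 6.10 ± 0.43, adjusted p = 1.47e-05). Gata6 and Osr1 were higher in WAT by 3.86 ± 0.35 and 3.93 ± 0.53. Tbx5 had 3.66, 21.1, 0.617 and 0.679 in WAT and 35.1, 103, 218 and 121 in BAT (log2 -4.61 ± 0.87, adjusted p = 0.00269). Tbx15, a factor known in both brown fat and muscle, had 0.524, 1.11, 1.23 and 0 in WAT and 1801, 1763, 73.0 and 89.2 in BAT. Its values in BAT libraries 1 and 2 were far above those in libraries 3 and 4, which still exceeded WAT (without libraries 1 and 2, log2 -5.65, adjusted p = 0.00146; with voom weights, adjusted p = 0.338).

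Secreted factors named for white fat were mostly higher in WAT, and those named for brown fat were divided. Of 25 adipokines 22 were tested, with 14 higher in WAT and 1 in BAT, against 25.3% and 15.7% of all tested genes. Saa3, an acute phase protein, had 250.2, 580.3, 30.8 and 67.9 in WAT and 2.77, 0, 2.12 and 0 in BAT (log2 6.17 ± 0.90, adjusted p = 0.000635; with voom weights, adjusted p = 0.261). The one member higher in BAT was Nampt, which makes an NAD precursor, with 3589.7, 2190.2, 3837 and 2775 in WAT and 10669, 8709, 6303 and 14729 in BAT (log2 -1.67 ± 0.28, adjusted p = 0.00125). Of 20 factors described as released by brown fat, 15 were tested, and 7 were higher in WAT against 3 in BAT (without BAT libraries 1 and 2, 4 in WAT and 3 in BAT). The 3 higher in BAT were Pm20d1, an enzyme that joins fatty acids to amino acids, Cxcl14, a chemokine, and Nrg4, a neuregulin whose call was lost with scaling by total reads (adjusted p = 0.07). Pm20d1 had 61.2, 38.4, 41.9 and 81.5 in WAT and 356, 399, 522 and 681 in BAT (log2 -3.13 ± 0.29, adjusted p = 5.09e-05). Cxcl14 had 54.4, 49.5, 41.3 and 59.8 in WAT and 252, 224.4, 247 and 221 in BAT (log2 -2.19 ± 0.18, adjusted p = 2.99e-05). Slit2, a guidance protein, was higher in WAT, with 229.8, 219.6, 106 and 59.8 in WAT and 9.24, 12.6, 8.47 and 10.9 in BAT (log2 3.59 ± 0.43, adjusted p = 0.000203).

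Markers of other cell types differed as well. All 12 mesothelial markers were higher in WAT, with a median of 6.78, and their summed level was 7798, 8179, 11839 and 2277 in WAT libraries 1 to 4 and 168, 105, 73.0 and 119 in BAT libraries 1 to 4. Upk3b, a uroplakin of mesothelial cells, had 2856, 2957, 4173 and 419 in WAT and 0, 0, 1.06 and 0 in BAT. Msln, mesothelin, had 831, 698, 1227 and 258 in WAT and 40.7, 3.87, 0 and 0 in BAT. WAT library 4 was the lowest of the white libraries for both, and Upk1b, Muc16 and Wt1 had no read in BAT. With voom weights 8 of the 12 mesothelial markers were called higher in WAT. Upk3b, Upk1b and Muc16 were among those not called with these weights (adjusted p = 0.0805, 0.0632 and 0.229). Macrophage markers were higher in WAT for 15 of 16, with a median of 2.11 and summed levels of 18123 to 22836 in WAT and 2631 to 6088 in BAT. Retnla, a product of alternatively activated macrophages, had 2837, 3201, 6757 and 3749 in WAT and 489.9, 222, 150.3 and 114 in BAT (log2 4.22 ± 0.45, adjusted p = 0.000169). All 7 genes of MHC class II presentation were higher in WAT (median 1.81). B cell markers had 6 of 8 higher in WAT, but most of their summed level lay in WAT library 2, with 3678, 79318, 1539.7 and 3058 in WAT libraries 1 to 4 and 79.4 to 391 in BAT; 2 were called without BAT libraries 1 and 2, 5 without WAT library 2 and 1 with voom weights. The part of these cell types in the other WAT and BAT differences was not tested.

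Collagens and matrix genes were higher in WAT for 22 of 28 and in BAT for 1, with a median of 1.39. Without BAT libraries 1 and 2 the counts were 17 in WAT and 1 in BAT, with a median of 1.37. Fmod, which encodes fibromodulin, had 1586, 1258, 2098 and 288 in WAT and 38.8, 7.74, 6.35 and 10.9 in BAT (log2 6.31 ± 0.72, adjusted p = 0.00027). Dcn, decorin, had 22332, 23935, 24622 and 12233 in WAT and 4550.5, 3136, 3250.1 and 2495 in BAT (log2 2.61 ± 0.27, adjusted p = 9.24e-05). The exception was Col12a1, with 110.5, 102, 114 and 63.2 in WAT and 275, 192, 403 and 748 in BAT (log2 -1.89 ± 0.39, adjusted p = 0.00396). Markers of fat progenitors were higher in WAT for 8 of 14 and in BAT for 0. Of 14 endothelial markers, 1 was higher in WAT and 1 in BAT, with a median of 0.15, which was -0.04 without BAT libraries 1 and 2. Mural cell markers were higher in BAT for 6 of 10 (3 with scaling by total reads, 5 without BAT libraries 1 and 2). Their summed level was 50014, 44434, 18433 and 14566 in BAT libraries 1 to 4 and 8017 to 14920 in WAT. Rgs5, one of the 6, had 3893, 3782, 2707 and 4987 in WAT and 6653, 9805, 8893 and 6742 in BAT (log2 -1.07 ± 0.22, adjusted p = 0.00387). After quantile normalization Rgs5 was not called (adjusted p = 0.0641). Tagln, a smooth muscle gene, was higher in WAT.

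**Figure D5:**
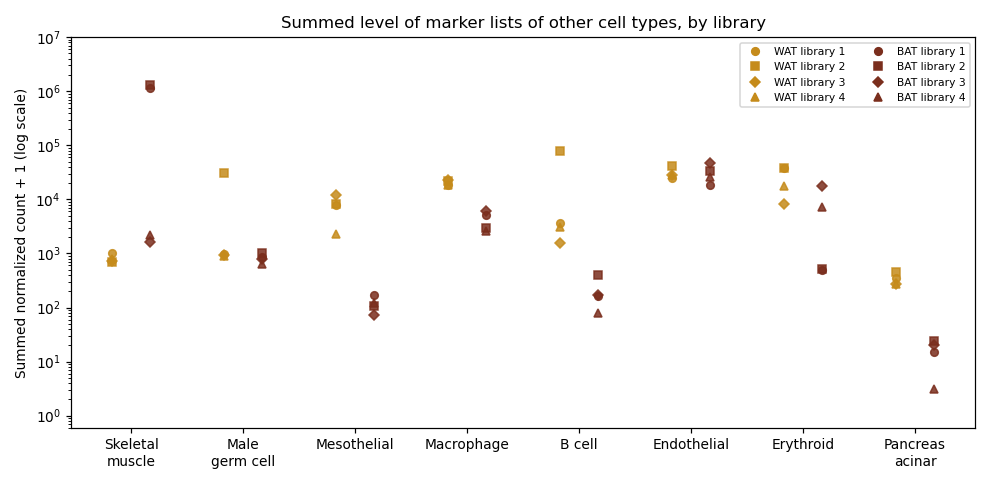
Summed normalized count + 1, on a log scale, of marker lists for other cell types; each point is 1 library, WAT left of BAT. The skeletal muscle sums of BAT libraries 1 and 2 and the germ cell sum of WAT library 2 stand apart, and the mesothelial and macrophage sums of WAT lie above those of BAT.

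Genes typical of other organs were read in some libraries. Of 20 male germ cell genes, limma called 0, with 1 at an unadjusted p under 0.05 and 0 called with voom weights, and most of their reads lay in WAT library 2. Prm2, a protamine of sperm, had 2.09, 4082, 3.08 and 19.0 in WAT and no read in BAT. Without WAT library 2, 2 of the 20 were called higher in WAT, Prm2 among them (adjusted p = 0.0266). Acinar genes of the pancreas were low but present in every WAT library, with summed levels of 350.2, 456, 267 and 268 in WAT libraries 1 to 4 and 13.9, 23.2, 19.1 and 2.17 in BAT; 5 of 5 tested were higher in WAT. Of 7 red cell genes limma called 0, with 5 at an unadjusted p under 0.05, all higher in WAT, and 0 called with voom weights. Their sums were 38442, 37879.6, 8198 and 17369 in WAT and 494, 523, 17599 and 7114 in BAT, lowest in the same BAT libraries 1 and 2. The median log2 difference of the red cell genes was 3.13 here and 0.90 without BAT libraries 1 and 2. In the group means of the inhibitor libraries it had the other sign, at -0.77 with antimiR-224 and -2.04 with antimiR-452.

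Esr1, which encodes the oestrogen receptor alpha, a nuclear receptor for steroids, was not called, with 942, 631, 966 and 949 in WAT and 1296, 807, 519.8 and 1223 in BAT (log2 -0.07 ± 0.29, 95% interval -0.71 to 0.57, adjusted p = 0.855).

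The oligonucleotides of the series target miR-224 and miR-452, whose hairpins both lie inside the gene Gabre on the same strand of chromosome X (chrX:72255999-72274803, - strand, GRCm38). Their mature sequences are printed because they name the groups of the series, with the seed, bases 2 to 8, in capitals. The seeds differ.
mmu-miR-224-5p, chrX:72261085-72261105, - strand: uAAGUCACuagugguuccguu
mmu-miR-452-5p, chrX:72262271-72262292, - strand: uGUUUGCAgaggaaacugagac
Gabre, which encodes the epsilon subunit of the GABA-A receptor, had 86.9, 81.7, 120.2 and 69.3 in WAT and 25.9, 19.3, 18.0 and 5.44 in BAT, without overlap (log2 2.46 ± 0.44, adjusted p = 0.00173). The poly(A) libraries do not measure the mature miRNAs. Of 13 genes in the list that holds Gabre and the proteins that make or use miRNAs, 2 were higher in WAT and 1 in BAT. Over all tested genes the shares were 25.3% and 15.7%. With scaling by total reads, 6 were higher in WAT and 0 in BAT. Besides Gabre, Tnrc6a was higher in WAT. Ago2, the slicing argonaute, was higher in BAT, with 976, 871, 887 and 694 in WAT and 1914, 1486, 1232 and 1622 in BAT (log2 -0.86 ± 0.17, adjusted p = 0.00301, and 0.0622 with scaling by total reads).

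Of 19 clock genes, 4 were higher in WAT and 7 in BAT (with size factors over the 8 libraries, 1 in WAT and 7 in BAT; without BAT libraries 1 and 2, 4 in WAT and 4 in BAT; with scaling by total reads, 5 in WAT and 4 in BAT), the largest being Nfil3, with 62.3, 85.6, 55.5 and 82.9 in WAT and 759, 682, 756 and 621 in BAT (log2 -3.30 ± 0.18, adjusted p = 5.02e-06). Of 18 immediate early genes, the 3 called were the orphan receptors Nr4a1, Nr4a2 and Nr4a3, all higher in BAT; Nr4a3 had 144, 240.1, 145 and 65.9 in WAT and 826, 728, 872 and 746 in BAT (log2 -2.54 ± 0.33, adjusted p = 0.000302). Fos and Egr1 varied over several-fold within each tissue and were not called. Over all tested genes, 25.3% were higher in WAT and 15.7% in BAT. The clock count in WAT and the immediate early count in BAT lay near these shares.

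Over all genes with a symbol, the 15 largest differences toward WAT, among genes with groups that did not overlap and a mean of at least 100, included the mesothelial genes Upk3b, Upk1b, Muc16, Wt1 and Msln. They also included Col6a5, Alb, Serpina3b, C6, Pkhd1l1, Lrp2, Slpi, Gm5460 and Sult1e1. With voom weights Serpina3b and Pkhd1l1 were not called (adjusted p = 0.143 and 0.261). Sult1e1, an oestrogen sulphotransferase, had 1027, 1457, 738 and 743 in WAT and 16.6, 6.77, 0 and 14.1 in BAT. The 15 toward BAT included Ucp1, Myh4, Atp2a1, Ckm, Mb, Otop1, Gm10032, Cidea, Fabp3-ps1, Xirp2, Fabp3, Perm1, Lgr6 and Mfsd2a. Of these, Myh4, Atp2a1, Ckm, Mb and Xirp2 are muscle genes carried mainly by BAT libraries 1 and 2: Myh4, a fast myosin, had 4.19, 3.34, 1.23 and 1.36 in WAT and 248300.0, 277781, 107 and 229 in BAT. Mfsd2a, a lipid transporter, had 0, 21.1, 1.85 and 6.12 in WAT and 1361, 1175, 1704 and 2636 in BAT.

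The direction of these differences was also read in the 16 inhibitor libraries, which had no part in the comparison, from the group means the authors deposited and with no spread. For each inhibitor, WAT means were first put on the scale of BAT by the median BAT to WAT ratio over genes with a mean of at least 50 in both. Of the 4606 genes higher in WAT, 4541 (98.6%) were also higher in WAT among antimiR-224 means and 4485 (97.4%) among antimiR-452 means, where 60.9% and 59.2% of all tested genes lay on that side. Of the 2866 genes higher in BAT, 2823 (98.5%) and 2766 (96.5%) kept their side, where 39.1% and 40.2% of all tested genes did. Mean Ucp1 was 2.61 normalized counts in WAT and 96156 in BAT after antimiR-224, and 1.96 in WAT and 74998 in BAT after antimiR-452. Mean Lep was 2889 in WAT and 90.1 in BAT after antimiR-224, and 2771 in WAT and 174 in BAT after antimiR-452. Mean Zic1 was 0 in WAT and 196 in BAT after antimiR-224, and 0 in WAT and 134 in BAT after antimiR-452. Mean Myh4 was 21374 in BAT after antimiR-224 and 194033 after antimiR-452.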

How the data were processed

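RNA of WAT and BAT was prepared with Trizol, and libraries were made by oligo-dT selection with a directional kit, per the labels' protocols. The authors deposited, for each tissue and inhibitor, a table with the signal of 2 groups (means of normalized counts), their ratio (fold change), its log2 and p-values and adjusted p-values; the authors' comparisons are not used here. Per the submitters' processing notes, the tools were DESeq 1.10.1 and R 2.15.3 and the build GRCm38.p4; not given in the sources used here are the aligner, the counter and its use of strand, so overlapping and antisense genes cannot be told apart.

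Each group mean averages the whole reads of 4 libraries, each divided by its size factor, and the reads were recovered from it: 1 combination fitted each gene to a relative error of at most 5.09e-15, so per-library values of the scramblemiR columns are counts divided by size factors. The libraries recovered this way cannot be tied to sample titles, and their numbers are only names. WAT was rescaled to BAT by 0.592, and 18228 genes with a mean of at least 10 in either tissue were fitted on log2(normalized count + 1) with limma 3.58.1 (R 4.3.3), with trend and robust variance and Benjamini-Hochberg adjustment over all of them. Fold changes on this scale understate those of low genes. Where a group had no read, a floor of 3 reads per library gave the bound. The script was tested on simulated data. Symbols came from the annotation for 99.5% of 30699 IDs. Alternatives were another pseudocount, filter, scaling, variance or weighting, and leaving out libraries.

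The comparison, its lists and their members were chosen with earlier results of these data known. Named genes are, per list, up to 4 highest and 4 lowest among those with adjusted p under 0.05, a set of defining genes, and the 15 largest differences in each direction; a few genes that this rule names are not reported here. Other members, named to complete a group, such as list members not called, other complex subunits, Hox genes in order and related genes of a pair, were chosen after their values were seen.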

Additional observations from a re-analysis of the deposited data

Results flagged for a closer look

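In each group of 4 libraries, a result is given here where the highest or lowest library stood apart, that is, where its gap to the next library, on the scale of log2(normalized count + 1), as a share of the whole range of the group, was above Dixon's critical value for 4 samples at the 95% level. Of 449 groups looked at, 30 passed (6.68%), and chance passes about 1 in 20. The share of the range is in parentheses, and it is 1 where the other 3 libraries had the same value, as in genes with no read in 3 of them. WAT library 1 stood below the other 3 WAT libraries for Apoe (0.851). WAT library 2 stood above the other 3 WAT libraries for Lhx8 (1) and the summed male germ cell markers (0.968). WAT library 2 stood below the other 3 WAT libraries for Esr1 (0.941), Lipe (0.845) and the summed peroxisome genes (0.895). WAT library 3 stood above the other 3 WAT libraries for Cfd (0.908) and Hoxc4 (0.909). WAT library 3 stood below the other 3 WAT libraries for Ckmt1 (0.855). WAT library 4 stood below the other 3 WAT libraries for Atp2a2 (0.864), Dcn (0.860), Muc16 (0.878), Pkhd1l1 (0.878), Serpina3b (0.850), Upk3b (0.835) and the summed fat progenitor markers (0.911). BAT library 1 stood above the other 3 BAT libraries for Adcy5 (0.851), Gm5460 (1), Hoxc9 (1) and Tcf21 (1). BAT library 1 stood below the other 3 BAT libraries for mt-Nd1 (0.859) and the summed complex I genes (0.834). BAT library 2 stood below the other 3 BAT libraries for the summed epididymis markers (0.889). This flag rests on a few counts, with sums of 4.62, 0, 4.23 and 5.44 in BAT libraries 1 to 4. In WAT libraries 1 to 4 these sums were 28.8, 545, 4.93 and 19.7. BAT library 3 stood above the other 3 BAT libraries for Cpt1b (0.879) and Upk3b (1). BAT library 4 stood above the other 3 BAT libraries for Lrp2 (1), Sucla2 (0.949), the summed common fat cell genes (0.850) and the summed fatty acid uptake genes (0.843). BAT library 4 stood below the other 3 BAT libraries for Dio3 (0.906).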

How the results depend on the processing

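Over the alternatives run, the counts of genes higher in WAT and in BAT stayed within 1.5 times 4606 and 2866 except with scaling by total reads, which gave 7681 and 1681. Other scalings gave 4002 and 3356 with size factors over the 8 libraries and 3246 and 3069 after quantile normalization; voom weights gave 3650 and 2690, no filter 4437 and 2656, and without BAT libraries 1 and 2 the counts were 3544 and 2382. Leaving out each library in turn gave 3813 to 4290 genes higher in WAT and 2404 to 2733 higher in BAT. No paired analysis was possible because the recovered libraries carry no replicate number of the labels. Of the genes named, those that changed sign (log2, WAT minus BAT) were not called in the main comparison: with size factors over the 8 libraries Atp5g3 -0.10, Hoxb4 -0.082, Hoxc4 -0.062, Thra -0.010; with scaling by total reads Esr1 0.34, Hoxb2 0.39, Hoxc5 0.15, Pnpla2 0.10, Pparg 0.18; after quantile normalization Atp5g1 -0.36, Esr1 0.037, Hoxb4 -0.23, Hoxc4 -0.11, Pnpla2 0.41, Pparg 0.10; without WAT library 2 and BAT libraries 1 and 2 Eno3 0.13, Esr1 0.23, Hoxc4 -0.26; without BAT libraries 1 and 2 Eno3 0.25, Esr1 0.084, Hoxb4 -0.077, Hoxc4 -0.29; and over single libraries left out, Hoxb2 -0.16 to 0.12, Esr1 -0.33 to 0.10, Fos -0.29 to 0.96, Hoxb4 -0.19 to 0.22, Hoxc4 -0.14 to 0.24, Atp5g1 -0.65 to 0.80, Atp5g3 -0.26 to 0.25. The cause was not tested. The 4 libraries per tissue, the missing link from libraries to mice, and the assumption that the median gene is equal in both tissues limit what these values show; a difference common to most genes would not be seen.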

Other observations

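Interferon response genes were higher in WAT for 16 of 26, with 1 higher in BAT and a median log2 difference of 0.80 (WAT minus BAT), against 0.26 over all tested genes. The count in WAT was 8 without BAT libraries 1 and 2, 9 after quantile normalization and 10 with size factors over the 8 libraries. Summed over the list, however, the level was 10728 to 18046 in WAT and 17585 to 33078 in BAT. In the group means of the inhibitor libraries, the median was 1.57 with antimiR-224 and 0.03 with antimiR-452. Genes of branched-chain amino acid breakdown were higher in BAT for 11 of 20, with 1 higher in WAT and a median of -0.82. Peroxisome genes were higher in WAT for 2 of 18 and in BAT for 8, and cholesterol synthesis genes for 1 and 5 of 23 tested (with scaling by total reads, 5 in WAT and 3 in BAT). Over all tested genes the shares were 25.3% in WAT and 15.7% in BAT. Lymphatic markers were higher in WAT for 3 of 5 tested (2 without BAT libraries 1 and 2). T and NK cell markers were for 3 of 9 and ciliated epithelium markers for 6 of 16, against 25.3% of all tested genes. Mammary epithelium markers were higher in WAT for 5 of 6 tested and keratinocyte markers for 2 of 4 tested. No member of these lists was called higher in BAT. Of the 10 mammary markers 4 were not tested, and Krt5, Csn3 and Wap had no read in any WAT library. Krt8 and Krt18 stand in the mesothelial list as well, and Krt5 is also a keratinocyte marker. With voom weights T and NK cell markers had 0 and ciliated epithelium markers 0 called higher in WAT, without WAT library 2 they had 0 and 5, and without BAT libraries 1 and 2 0 and 3. Schwann cell and neuron markers were higher in WAT for 3 and in BAT for 4 of 9, and without BAT libraries 1 and 2 for 1 and 1.

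The scramblemiR means stand in the deposited antimiR-224 tables and again in the antimiR-452 tables. The log2 ratio of WAT over BAT differed between them by at most 0.0205 for any tested gene. Genes with a log2 ratio of 1 or above, that is, toward WAT, numbered 5346 with the antimiR-224 tables and 5351 with the antimiR-452 tables.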
